A study of Mus musculus with 6 samples.

Results

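The genes described here are the ligands and receptors of the 4 classical axon guidance systems, measured one cell at a time in the adult mouse preoptic region of the hypothalamus. They were taken from the gene table by symbol: semaphorins of classes 3 to 7 with their plexin and neuropilin receptors, ephrins with their Eph receptors, Slits with their Robo receptors, and netrins with Dcc and the Unc5 receptors. The rule found 73 rows of the 27998 in the table, with 71 different symbols, because Ntn5 stood under 3 gene identifiers. The rows comprised 20 semaphorins, 9 plexins, 2 neuropilins, 8 ephrins, 14 Eph receptors, 3 Slits, 4 Robo receptors, 5 netrin rows and 5 netrin receptors. The symbol rule also took in 3 antisense transcripts of Plxna4, which encode no receptor. The mice were adults of 60 to 70 postnatal days, housed alone for 3 days before the preoptic region was dissociated with protease and live cells were sorted by fluorescence. Females gave 3 libraries and males gave 3, every one from 3 pooled mice, and no treatment or genotype separated them. Every droplet library carried a cell barcode and a molecular identifier per transcript (UMI).

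Guidance cues are secreted or membrane-bound proteins that attract or repel a growing axon tip, and the same proteins act later on glia, vessels and synapses. Class 3 semaphorins are secreted and mostly signal through a neuropilin joined to a plexin, whereas membrane-bound semaphorins bind plexins directly. Ephrins are membrane-bound and bind Eph receptor tyrosine kinases on a neighbouring cell, with signals possible in both directions. Slits are secreted ligands of Robo receptors, and netrins attract through Dcc or repel through Unc5 receptors.

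Of 31299 barcodes, 30824 held at least 500 genes and at most 20% mitochondrial UMIs, and 29822 were analysed after doublets were removed. The libraries differed in depth, with 1278429 to 81162330 UMIs and 406 to 9365 analysed cells. Female replicate 3 was the smallest, with a median of 2671 UMIs per cell against 3614 to 6538 in the other libraries. Of the cell barcodes, 468 sequences occurred in 2 or more libraries. Clusters were built without the guidance genes and were named from marker lists, so that each class name stands for cells with that marker profile, and the dissected pieces also held cells with a striatal profile. The classes held 8551 inhibitory neurons, 3263 excitatory neurons, 2841 striatal projection neurons, 3552 neurons left without a class name, 1553 oligodendrocyte precursors, 408 newly formed and 6644 mature oligodendrocytes, 817 astrocytes, 796 microglia, 451 endothelial cells and 450 mural cells. The neurons without a class name formed 3 clusters with a GABA profile. Gad1 was held by 92.1% to 97.2% of their cells, Slc32a1 by 87.5% to 93.8% and the glutamate marker Slc17a6 by 3.45% to 5.24%. The name inhibitory neuron was withdrawn because 1 leading gene of each was a marker of another class. Comparisons with inhibitory neurons therefore leave these cells out. Some named clusters were led by activity or inflammation genes: Ccl3 and Ccl4 in the main microglial cluster, Npas4 and Fosb in 1 inhibitory cluster, and Egr4 and Arc in 1 striatal cluster. Hba-a1, a haemoglobin gene, was among the leading genes of the endothelial cluster. Female replicate 3 had fewer than 20 excitatory neurons, newly formed oligodendrocytes, microglia and mural cells, and 5 libraries remained for those classes. Macrophages (76 cells), fibroblasts (64) and dividing cells (118) reached 20 cells in 1, 1 and 3 libraries and were not among the classes compared.

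Levels are given as counts per 1000000 UMIs (CPM) of the summed cells of a class in each library. Differences between classes were tested with edgeR's quasi-likelihood test on the summed counts, with the library as a block, and are log2 differences after TMM scaling. Scaling by total UMIs alone moved the median difference of all genes by -0.18 (newly formed oligodendrocytes over precursors), -0.39 (mature over newly formed), -0.73 (mature oligodendrocytes over neurons), -0.27 (astrocytes), -1.04 (microglia), -0.32 (endothelial cells), -0.39 (mural cells) and 0.15 (endothelial over mural cells), so a log2 difference can depart from the ratio of the CPM values by about that amount. Because the same cells were clustered and then compared, p-values between classes may be too small. RNA of neuron-only genes was measured in every other class, and whether it came as free RNA or in droplets with more than 1 cell was not tested. A set of 10 neuron-only genes such as Snap25 and Rbfox3 reached at most 35.5% of the neurons' CPM in precursors, 8.39% in newly formed and 12.2% in mature oligodendrocytes, 25.2% in astrocytes, 10.1% in microglia, 28.1% in endothelial cells and 15.9% in mural cells. In precursors and mature oligodendrocytes Syn1 alone set that highest share, and the other 9 genes lay at 5.002% to 14.6% in precursors and at 3.32% to 6.19% in mature oligodendrocytes. A guidance gene at or under the highest share was read as background in that class, and counts without Syn1 are given beside those that rest on it.

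Across the 11 classes, 47 of the 73 rows reached a mean of 20 CPM in their highest class, and 26 stayed under it in every class. Among those 47, 30 (63.8%) were highest in a glial or vascular class and 17 in neurons. This share is that of genes in general, since 7 of the 11 classes lay outside neurons and 64.7% of all 10897 genes that reached 20 CPM were highest there. Outside neurons stood the highest level of 17 of 25 ligands and 13 of 22 receptors. By class, endothelial cells held the highest level of 9 members, striatal projection neurons of 8, oligodendrocyte precursors and newly formed oligodendrocytes of 6 each, astrocytes and inhibitory neurons of 5 each, excitatory neurons of 4, mature oligodendrocytes of 2, and microglia and mural cells of 1 each. For 19 members (40.4%) the libraries of the highest class did not overlap those of the next class, which held for 24.5% of the same 10897 genes. These were Efnb3 and Unc5b in mature oligodendrocytes, Plxnb3, Sema5a and Sema6a in newly formed oligodendrocytes, Sema5b in precursors, Plxnb1 and Sema4b in astrocytes, Robo4, Sema3c, Sema7a and Nrp1 in endothelial cells, Ntn4 in mural cells, Slit1 in excitatory neurons, and Slit3, Efnb2, Epha4, Epha7 and Robo1 in striatal projection neurons. The heat map of members by class shows these as single bright cells, beside broad rows such as Epha5, which encodes an ephrin-A receptor and ran at 266 CPM in inhibitory neurons, 230.4 CPM in striatal projection neurons and 213 CPM in precursors.

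**Figure D1:**
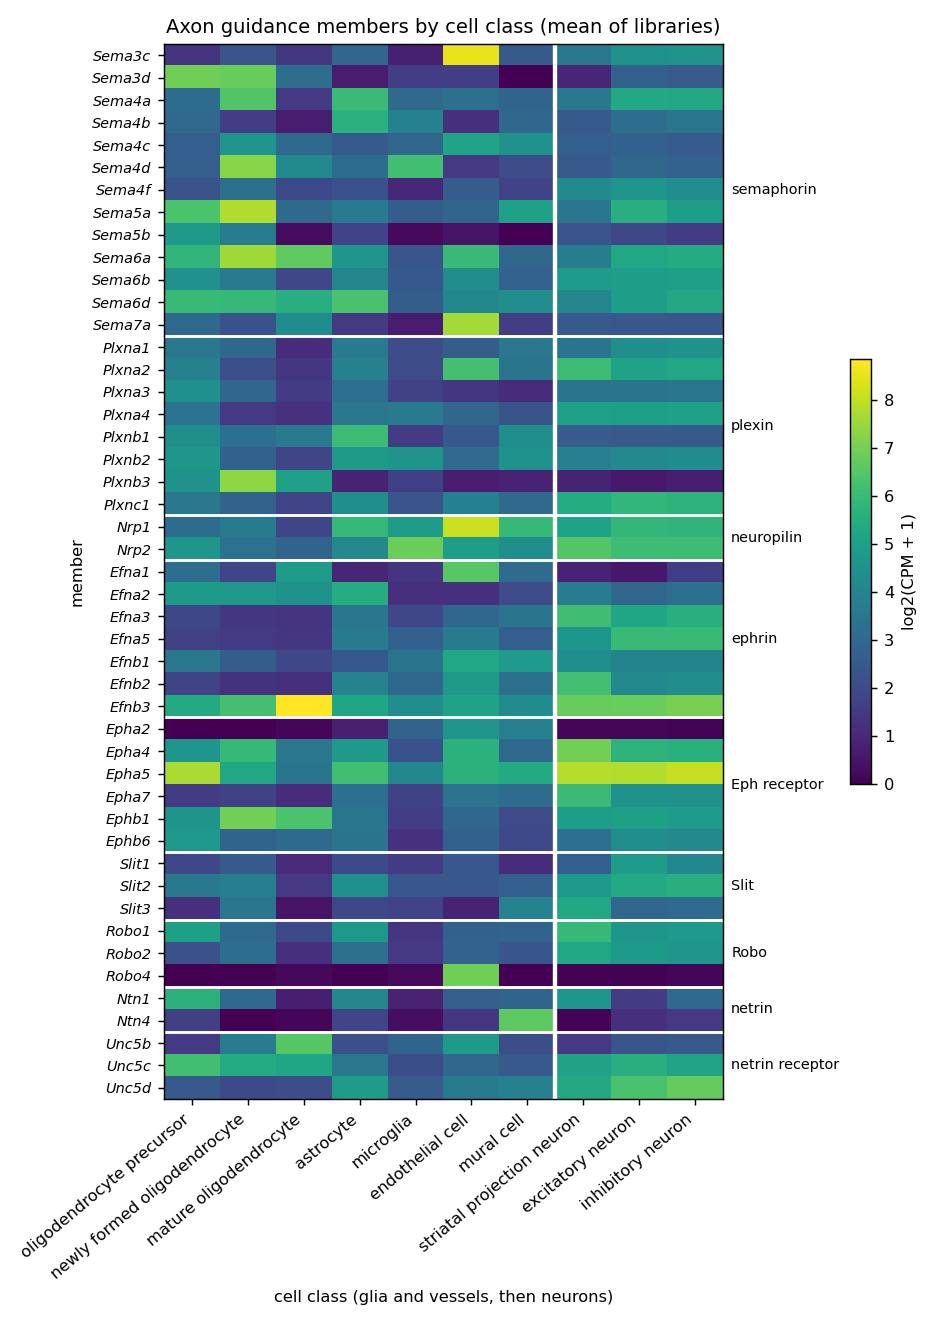
Mean level of each guidance gene that reached 20 CPM in some class (rows, grouped by family) in 10 named cell classes (columns, glia and vessels left of neurons), as log2(CPM + 1) on the colour scale. The brightest class differs from row to row, with Robo4 at 119.6 CPM in endothelial cells and Efnb3 at 460.4 CPM in mature oligodendrocytes.

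Along the oligodendrocyte lineage several members changed at each step. Newly formed oligodendrocytes, the short stage between the dividing precursor and the myelinating cell, carried the membrane-bound semaphorins Sema4d, Sema4a and Sema5a and the plexin Plxnb3 above both neighbouring stages. Of the 73 rows, 23 passed the filter on low counts in newly formed cells over precursors, and 9 rose and 8 fell. Of all 8422 genes tested, 50.5% were called (24.9% higher and 25.6% lower), so the count of called members is to be read against a high background. The members' median log2 difference was -0.06, and that of all genes -0.01.

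Sema4d, a membrane-bound semaphorin that binds B plexins, was measured in precursors at 5.92, 8.02 and 0 CPM in the female and 7.24, 7.01 and 4.69 CPM in the male libraries. In newly formed oligodendrocytes it stood at 199.95 and 133 CPM in the female and 143, 207 and 90.6 CPM in the male libraries. In mature oligodendrocytes it was back at 14.6, 21.6 and 8.52 CPM in the female and 23.8, 27.3 and 7.90 CPM in the male libraries. Every newly formed library was above every precursor and every mature library, and the rise over precursors (log2 difference 4.62 ± 0.18 SE; edgeR, adjusted p = 4.00e-21) and the fall at maturity (log2 difference -2.53 ± 0.14 SE; edgeR, adjusted p = 4.55e-13) both passed the test. Plxnb3, a B plexin known as a receptor of Sema5a, took the same course: 21.99 ± 7.22 CPM in precursors, 161 ± 42.0 CPM in newly formed and 32.2 ± 4.02 CPM in mature oligodendrocytes (mean ± SD, n = 6, 5 and 6). Its rise over precursors (log2 difference 3.20 ± 0.14 SE; edgeR, adjusted p = 2.60e-19) left no overlap between libraries, and neurons held 0.589 ± 0.444 CPM.

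The promoter of Plxnb3 is shown because this gene was low in neurons and present at each lineage stage. The window runs from 250 bases before to 50 after the transcription start in RefSeq's GRCm38.p6 (chrX:73756853-73757152, plus strand), written 5′ to 3′. Capitals mark ACAAAG, the core of motifs bound by SOX transcription factors, searched on both strands.
Plxnb3: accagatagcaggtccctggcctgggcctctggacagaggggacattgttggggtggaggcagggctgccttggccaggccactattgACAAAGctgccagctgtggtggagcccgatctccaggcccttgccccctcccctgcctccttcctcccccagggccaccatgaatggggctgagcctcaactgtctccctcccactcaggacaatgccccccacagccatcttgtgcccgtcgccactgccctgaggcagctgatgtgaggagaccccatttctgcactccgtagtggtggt
The window held 1 match, and 18.7% of the 32851 promoters of the same length held at least 1, so the match is a description and not a binding site.

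Sema5a and Sema4a, both membrane-bound, were also highest in newly formed cells. Sema5a was at 256 and 205 CPM in the female and 219, 279 and 156 CPM in the male libraries in newly formed cells. It was at 26.5 to 127 CPM in precursors and 3.33 to 10.3 CPM in mature oligodendrocytes. The 3 ranges did not overlap, and the fall at maturity (log2 difference -4.36 ± 0.13 SE; edgeR, adjusted p = 6.93e-18) was larger than the rise before it (log2 difference 1.44). Sema4a ran at 7.80 ± 2.49 CPM in precursors, 87.2 ± 11.4 CPM in newly formed and 1.84 ± 1.32 CPM in mature cells, with log2 differences of 3.77 and -4.79 at the 2 steps. Sema6a, a ligand of A plexins, and Ephb1, a receptor of B ephrins, rose as well, and Sema6a was called lower again in mature cells (log2 difference -0.48). Sema6a ran at 55.2 ± 11.95, 192 ± 45.1 and 103 ± 15.6 CPM over the 3 stages, and Ephb1 at 22.9 ± 5.74, 123 ± 30.7 and 80.5 ± 5.96 CPM. Their newly formed libraries lay above all precursor libraries, but for Ephb1 they overlapped those of mature cells. Ephb1's exons overlap a transcript on the other strand, and without a stated strand of counting the reads of both cannot be told apart. Sema4c and Epha4 rose in newly formed cells too (log2 differences 2.10 and 1.44).

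Other members belonged to the precursor and were lost on the way. Ntn1, the founding netrin, had 8.84 to 63.3 CPM in precursors, where the low end was female replicate 3 and the other 5 libraries stood at 53.5 CPM or more. It was at 0 to 14.04 CPM in newly formed and 0 to 2.11 CPM in mature oligodendrocytes. The fall in newly formed cells (log2 difference -2.62 ± 0.26 SE; edgeR, adjusted p = 2.87e-10) left no overlap in the 5 libraries compared. Epha5 ran at 213 ± 27.2 CPM in precursors, 38.9 ± 9.86 CPM in newly formed and 9.85 ± 6.24 CPM in mature cells, where it was at the background share, and both steps down were called (log2 differences -2.34 and -1.28, the second lost with doublets kept and at a finer clustering). Robo1, Nrp2, Ephb6, Plxnb2, Plxnb1 and Sema5b fell in newly formed cells, with log2 differences of -0.80 (Sema5b) to -1.71 (Ephb6). The falls of Plxnb1 and Sema5b lost the call in DESeq2 and when single libraries were left out. Sema3d, a secreted semaphorin, followed a later course: it was at 122 ± 20.8 CPM in precursors and 110.2 ± 9.73 CPM in newly formed cells, then at 8.12 ± 1.58 CPM in mature cells (log2 difference -3.32 ± 0.15 SE; edgeR, adjusted p = 6.07e-15 for mature over newly formed).

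Maturation brought another, smaller set. In mature over newly formed oligodendrocytes, 22 members passed the filter, 4 rose and 11 fell, against 54.9% of all 9104 genes called (27.1% higher and 27.8% lower). Without male replicate 3 the count of lower members was 19, but the filter was run anew there, so this is not out of the same 22. Efnb3, the ephrin-B3 of myelin and a known inhibitor of neurite growth, stood at 508, 427 and 451 CPM in the female and 396, 465 and 516 CPM in the male libraries in mature cells. In newly formed cells it was at 78.2 and 46.7 CPM in the female and 64.6, 91.0 and 90.6 CPM in the male libraries. All mature libraries lay far above all newly formed ones (log2 difference 3.03 ± 0.11 SE; edgeR, adjusted p = 2.01e-16). Unc5b, a netrin receptor, ran at 1.82 ± 1.61, 12.5 ± 4.497 and 90.7 ± 9.48 CPM over the 3 stages (log2 difference 3.50 in the last step), and Efna1 at 8.14 ± 3.76, 2.65 ± 2.11 and 28.0 ± 8.92 CPM (log2 difference 3.59). Sema7a also rose (log2 difference 3.32), at under 20 CPM in both stages, and was singled out after its values were seen. Among the 3 large clusters of mature oligodendrocytes, Ephb1 averaged 117.5 CPM in the one led by Klk6, against 63.4 CPM in the one led by Ptgds and 76.8 CPM in the one led by Mal, and Sema6d averaged 21.0, 51.6 and 51.7 CPM in the same order. Efnb3 was much the same in all 3, at 463.8, 436.4 and 478.0 CPM.

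**Figure D2:**
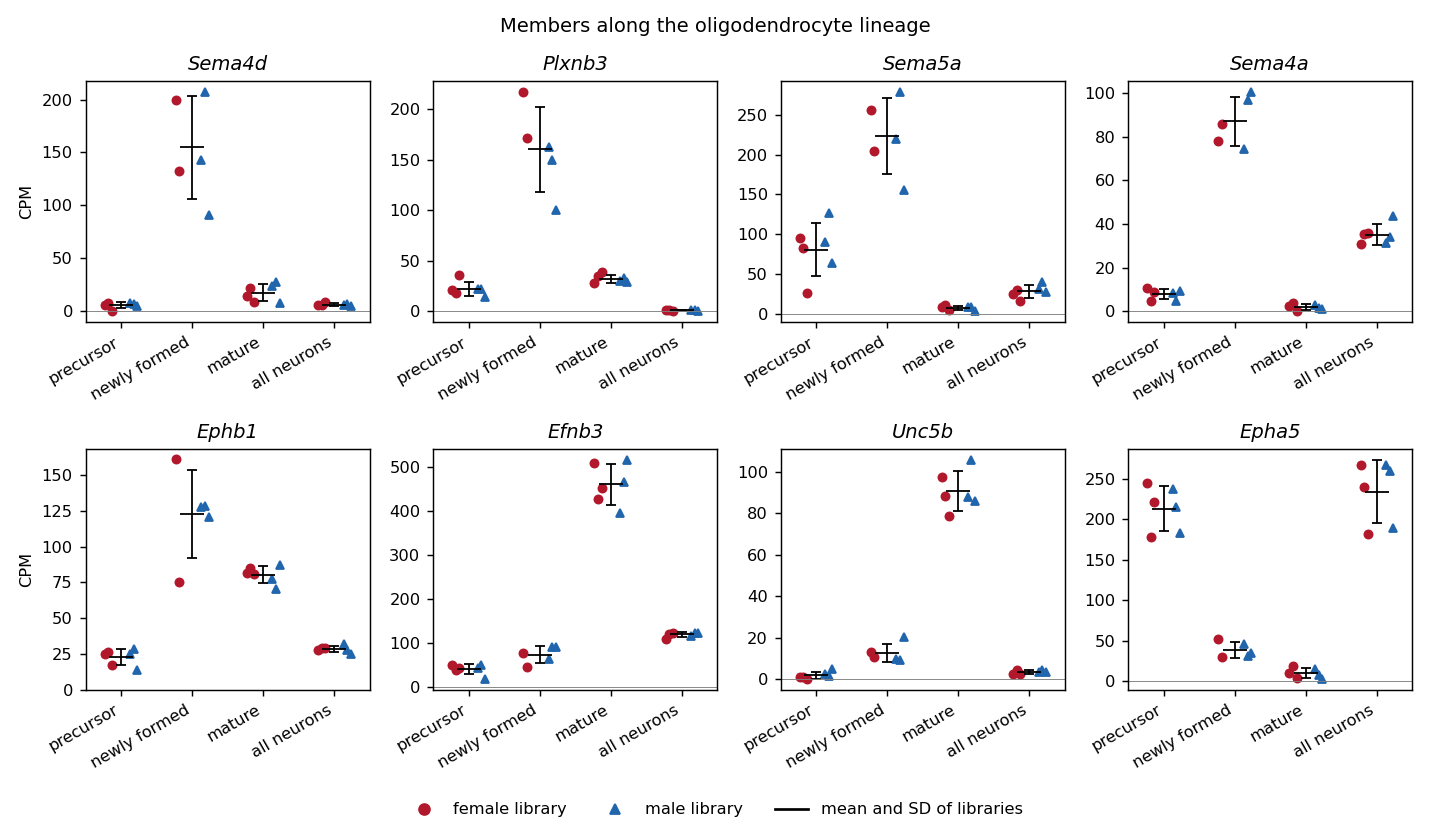
CPM of 8 guidance genes in each library (circles female, triangles male) with mean and SD of libraries (black) in oligodendrocyte precursors, newly formed oligodendrocytes, mature oligodendrocytes and all neurons, on linear axes. Sema4d, Plxnb3, Sema5a and Sema4a are highest at the newly formed stage, Efnb3 and Unc5b in mature cells, and Epha5 is high in precursors and neurons.

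The genes that carry guidance signals inside the cell moved in both directions with these steps. Of 49 such genes listed, 36 were tested in newly formed cells over precursors, 17 rose and 8 fell. Fyn, a kinase that acts below several guidance receptors and also one of the naming markers of this stage, was at 2389 against 137 CPM in precursors, log2 difference 4.25, and Chn2, a Rac-inactivating chimaerin, at 567 against 15.8 CPM in precursors, log2 difference 5.35. In mature over newly formed cells 10 rose and 12 fell of 36 tested. Fyn (43.7 against 2389 CPM in newly formed cells, log2 difference -5.36) was among those that fell. Of 36 other cues and coreceptors listed, 6 rose and 11 fell of 23 tested in newly formed cells, and the myelin inhibitor Rtn4 rose (1276 against 321 CPM in precursors, log2 difference 2.10). Mag, another one, is a naming marker of mature cells and stood at 2274 against 64.2 CPM in precursors, log2 difference 5.21. At maturity 5 rose and 11 fell of 20 tested.

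Precursors and mature oligodendrocytes were each compared with neurons. In precursors 46 members passed the filter, 12 were higher and 24 lower than in neurons, with 75.2% of all genes called (36.1% higher and 39.1% lower). Sema3d (122 ± 20.8 against 4.79 ± 1.02 CPM in neurons; log2 difference 4.89 ± 0.11 SE; edgeR, adjusted p = 8.89e-34), Sema5b (25.8 against 2.60 CPM in neurons) and Ntn1 (50.6 against 8.46 CPM in neurons) were higher, and so was the netrin receptor Unc5c (71.7 against 36.7 CPM in neurons, log2 difference 0.86). Lower members had log2 differences of -4.34 (Unc5d), -4.01 (Efna5), -3.46 (Efna3), -3.20 (Epha7), -2.89 (Efnb2), -2.57 (Nrp1), -2.56 (Robo2), -2.26 (Sema4a), -1.92 (Plxnc1) and -1.60 (Slit2), and of all 24 lower ones 16 were at the background share, or 8 with Syn1 left out of the list. Signalling genes were higher in 16 and lower in 23 of 45 tested, and other cues were higher in 19 and lower in 8 of 28. In mature oligodendrocytes all 57 members that passed were called, 15 higher and 42 lower, with 83.3% of all genes called (39.4% higher and 43.8% lower), and 32 of the 42 were at the background share, or 18 with Syn1 left out. Efnb3 averaged 460.4 ± 46.2 CPM in mature oligodendrocytes and 119.8 ± 5.26 CPM in neurons (log2 difference 2.66 ± 0.09 SE; edgeR, adjusted p = 6.49e-11). The other higher members had log2 differences of 6.001 (Plxnb3), 5.42 (Unc5b), 5.37 (Efna1), 2.39 (Sema6a), 2.21 (Ephb1), 2.10 (Efna2) and 1.32 (Sema6d), and the lower ones of -4.00 (Efna5), -3.75 (Unc5d), -3.74 (Epha5), -3.68 (Efna3), -3.56 (Plxna4), -3.54 (Plxna2), -3.53 (Epha7), -3.49 (Nrp1), -3.46 (Slit2) and -3.37 (Robo2). Signalling genes were higher in 20 and lower in 24 of 48 tested, and other cues were higher in 10 and lower in 18 of 29. The direction of Unc5c in mature oligodendrocytes turned with the scaling: its log2 difference from neurons was 0.67 with TMM and -0.07 by total UMIs, at 35.5 CPM in mature oligodendrocytes and 36.7 CPM in neurons.

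Astrocytes held the plexin Plxnb1 and a few ligands above neurons. In astrocytes 35 members passed the filter, 6 were higher and 20 lower (4 of the 20 at the background share), with 51.9% of all genes called (26.4% higher and 25.6% lower). Without male replicate 1, with the filter run anew, the count of lower members was 12. Plxnb1, the main receptor of Sema4d, stood at 48.7, 47.2 and 98.5 CPM in the female and 52.7, 52.9 and 92.0 CPM in the male libraries. In neurons it was at 3.68 to 4.79 CPM. All astrocyte libraries were above all neuron libraries (log2 difference 3.86 ± 0.19 SE; edgeR, adjusted p = 3.82e-10). Sema4b (49.7 against 8.18 CPM in neurons), Efna2 (43.4 against 8.56 CPM in neurons) and Sema6d (78.2 against 31.1 CPM in neurons) were likewise without overlap, with log2 differences of 2.45, 2.32 and 1.49. Sema4a was higher with overlap (64.5 against 35.1 CPM in neurons). Plxnb2 was called (log2 difference 0.66 ± 0.21 SE; edgeR, adjusted p = 0.016) but not with other scalings, without the filter or without male replicate 2. The lower members had log2 differences of -1.47 (Efna5), -1.21 (Epha5), -1.20 (Efna3), -1.18 (Nrp2), -1.01 (Efnb3), -0.95 (Unc5d), -0.94 (Unc5c), -0.90 (Epha7), -0.85 (Plxna2) and -0.85 (Sema6b), of which those of Epha7, Plxna2 and Unc5c lost the call without male replicate 1. Part of the astrocytes also held neuronal RNA. At the finer clustering 155 of the 817 fell in a cluster of 159 cells with a median of 6421 UMIs, in which 69.2% of cells held Gad1 and 83.6% Gad2, both markers of GABA neurons, against 7.77% and 13.9% in the largest astrocyte cluster, which had a median of 2747 UMIs. Female replicate 2 gave 58 of these cells, male replicate 2 gave 51 and male replicate 1 gave 43. Without them, a choice made after seeing the data, the neuron-only genes reached at most 8.996% of the neurons' CPM. Then 25 members passed the filter, 5 were higher and 17 lower, 7 of the 17 at that share, with 72.7% of all genes called (26.4% higher and 46.4% lower). Of the 26 calls made with all astrocytes, 19 were made again in the same direction. The higher members Plxnb1, Sema4b, Efna2, Sema6d and Sema4a had log2 differences of 4.05, 2.74, 2.51, 1.605 and 1.26, and Plxnb2 lost the call. The differences of the lower members were larger, such as -3.28 for Epha5, -4.59 for Epha7 and -4.28 for Unc5d. Epha5 averaged 16.8 ± 16.4 CPM in astrocytes without these cells and 71.7 ± 64.2 CPM with them (SD, n = 6). Sema4f, Sema5a, Slit1, Unc5a, Epha10 and Robo2 no longer passed the filter, and Efnb2, Sema6a and Slit2 were newly called lower. Plxnb1's exons overlap an antisense transcript, so its counts are uncertain in the same way as those of Ephb1. Of the 36 other cues, 10 were higher and 5 lower of 25 tested, led by Rgma, a repulsive guidance molecule (205 against 9.70 CPM in neurons, log2 difference 4.46), and Vegfa, a vessel growth factor (85.9 against 9.82 CPM in neurons, log2 difference 3.11). Of the 49 signalling genes, 14 were higher and 16 lower of 42 tested.

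Microglia were lower than neurons in most members. Of 51 that passed the filter, 6 were higher and 38 lower than in neurons (22 of the 38 at the background share), with 73.4% of all genes called (33.6% higher and 39.7% lower). Without male replicate 3, with the filter run anew, the count of higher members was 10. Sema4d, also known from immune cells, was at 57.7 and 58.0 CPM in the female and 94.8, 57.9 and 85.6 CPM in the male libraries. In neurons it was at 4.93 to 8.99 CPM. The groups did not overlap (log2 difference 4.61 ± 0.18 SE; edgeR, adjusted p = 2.45e-44). Nrp2, a neuropilin, averaged 115 ± 13.6 CPM in microglia and 65.5 ± 9.62 CPM in neurons. Its log2 difference was 1.82 with TMM and 0.78 by total UMIs. Plxna4os1, an antisense transcript of Plxna4, was at 14.4 to 19.0 CPM in microglia and at 0 to 0.121 CPM in neurons, and was singled out after its values were seen. Plxna4 itself averaged 11.5 ± 3.12 CPM in microglia and 30.5 ± 3.96 CPM in neurons. The lower members had log2 differences of -2.95 (Unc5d), -2.81 (Sema4f), -2.81 (Epha4), -2.72 (Robo2), -2.69 (Robo1), -2.68 (Epha5), -2.47 (Efna3), -2.46 (Efna5), -2.36 (Plxnc1) and -2.36 (Plxna2). Among the other cues, 5 were higher and 19 lower of 28 tested, and Cd72, an immune receptor of Sema4d, was at 111 against 0.368 CPM in neurons, log2 difference 9.34. Of the signalling genes, 16 were higher and 24 lower of 46 tested.

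Endothelial cells held Robo4, Sema7a, Sema3c and Nrp1 above every other class. In endothelial cells 30 members passed the filter, 9 were higher and 17 lower than in neurons (14 of the 17 at the background share), with 58.9% of all genes called (28.3% higher and 30.6% lower). Without female replicate 3 the count of lower members was 26, but the filter was run anew there, so this is not out of the same 30. Robo4, the Robo receptor of endothelium, was at 74.8, 66.0 and 195 CPM in the female and 81.5, 114 and 186 CPM in the male libraries. Neurons held 0 to 0.121 CPM. In mural cells no UMI of Robo4 was counted in 5 libraries, so endothelial cells of those libraries were at least 48.5-fold higher, with 3 UMIs over the group as the floor. Sema7a, a semaphorin tethered by a lipid anchor, was at 204, 136 and 244 CPM in the female and 166, 209 and 225 CPM in the male libraries, and mural cells held 0 to 3.74 CPM. Every endothelial library lay above every mural library, and both the difference from neurons (log2 difference 5.95 ± 0.19 SE; edgeR, adjusted p = 3.64e-14) and that from mural cells (log2 difference 5.94 ± 0.32 SE; edgeR, adjusted p = 8.19e-10) passed.

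The promoters of Robo4 and Sema7a are shown as those of 2 genes on chromosome 9 with the same endothelial pattern, as 300-base windows from RefSeq's GRCm38.p6 laid out as for Plxnb3 (Robo4 at chr9:37401722-37402021, plus strand; Sema7a at chr9:57939862-57940161, plus strand).
Robo4: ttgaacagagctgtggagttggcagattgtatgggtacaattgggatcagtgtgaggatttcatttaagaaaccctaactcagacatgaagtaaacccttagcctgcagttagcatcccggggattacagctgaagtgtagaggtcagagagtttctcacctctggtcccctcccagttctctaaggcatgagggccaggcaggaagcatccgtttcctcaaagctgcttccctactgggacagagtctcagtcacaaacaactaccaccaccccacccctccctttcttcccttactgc
Sema7a: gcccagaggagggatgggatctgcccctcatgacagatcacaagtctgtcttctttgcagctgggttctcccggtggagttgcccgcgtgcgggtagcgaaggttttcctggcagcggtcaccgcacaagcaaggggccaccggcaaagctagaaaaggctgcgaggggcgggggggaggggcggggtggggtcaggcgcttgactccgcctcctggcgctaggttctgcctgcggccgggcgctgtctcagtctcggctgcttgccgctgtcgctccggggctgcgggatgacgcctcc
Neither window held CGGAAG, a core of motifs bound by ETS transcription factors, on either strand, nor ACAAAG, so no letter is in capitals. CGGAAG was present in 16.9% of the 32851 promoters.

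A secreted semaphorin and its coreceptor were high in the same vessel cells. Sema3c was at 336, 279.6 and 683 CPM in the female and 308, 371 and 274 CPM in the male libraries in endothelial cells. Nrp1, which binds class 3 semaphorins and VEGF, was at 255, 217 and 293 CPM in the female and 285, 403 and 225 CPM in the male libraries. For Sema3c the highest library was female replicate 3, and the other 5 held 274 to 371 CPM. Neurons held 18.3 ± 4.65 CPM of Sema3c and 49.8 ± 10.8 CPM of Nrp1, below every endothelial library (log2 difference 4.45 ± 0.20 SE; edgeR, adjusted p = 2.10e-12 for Sema3c; log2 difference 2.73 for Nrp1). Efna1 (92.0 against 1.25 CPM in neurons), Sema4c (34.6 against 5.42 CPM in neurons), Efnb1, Plxna2 and Sema6a were higher too, with log2 differences from 1.07 (Sema6a) to 6.36 (Efna1). Lower members had log2 differences of -2.15 (Slit2), -1.97 (Unc5d), -1.91 (Efna3), -1.77 (Epha5), -1.59 (Robo2), -1.57 (Unc5c), -1.55 (Efna5), -1.50 (Sema5a), -1.46 (Robo1) and -1.36 (Sema4a). Those at the background share included Unc5d (14.3% of the neuron level), Epha5 (21.6%) and Efna5 (20.9%). The neuron-only genes had a median of 20.4% in endothelial cells, so endothelial expression of these members could not be told from background.

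Mural cells, the pericytes and smooth muscle of the vessel wall, had a single leading member. Their cluster was led by smooth muscle genes such as Acta2, Tagln and Myh11, so its values may stand mainly for smooth muscle. A cluster of 34 cells stayed unnamed and was left out, with the mural markers Vtn, Kcnj8 and Rgs5 and the endothelial marker Flt1 among its leading genes. Ntn4, a netrin of basement membranes, was at 63.6 and 107 CPM in the female and 121, 126 and 80.3 CPM in the male libraries. Endothelial cells held 0 to 4.31 CPM and neurons 0.592 to 2.25 CPM. Mural libraries lay above those of the other classes compared, and the difference passed against neurons (log2 difference 6.75 ± 0.24 SE; edgeR, adjusted p = 3.19e-28) and, in the other direction, for endothelial over mural cells (log2 difference -5.34 ± 0.39 SE; edgeR, adjusted p = 1.82e-08). In mural cells 51 members passed, 5 were higher and 34 lower than in neurons (17 of the 34 at the background share), with 56.3% of all genes called (25.3% higher and 31% lower). The higher count was 3 without male replicate 2, with RLE or total scaling and in DESeq2, since Efnb1 and Plxnb2 lost the call. Sema4c (21.7 against 5.15 CPM in neurons) and Plxnb1 (20.2 against 4.43 CPM in neurons) were the other higher members. Lower members had log2 differences of -2.90 (Efna5), -2.55 (Epha4), -2.53 (Plxna4), -2.41 (Ephb1), -2.38 (Sema4f), -2.26 (Slit2), -2.22 (Unc5c), -2.20 (Unc5d), -2.10 (Plxnc1) and -2.08 (Efnb3). Of endothelial over mural differences, 11 members passed the filter, 9 were higher and 1 lower, with 35.7% of all genes called (18.8% higher and 16.8% lower). Beside Robo4, Sema7a, Sema3c, Nrp1 and Efna1, endothelial cells were higher in Epha4 (60.7 against 7.17 CPM in mural cells), Plxna2 (75.4 against 9.77 CPM in mural cells) and Sema6a (54.3 against 6.65 CPM in mural cells). Efnb3 was called as the ninth (log2 difference 0.88 ± 0.32 SE; edgeR, adjusted p = 0.043) and lost the call with no filter, in DESeq2, with doublets kept, without the block and without female replicate 1, male replicate 1 or male replicate 3. Of the other cues, Kdr, the main VEGF receptor, was in endothelial cells at 211 against 0.339 CPM in neurons, log2 difference 9.33, and in the 5 libraries with mural cells at 209.6 against 0.361 CPM in mural cells, log2 difference 7.78. Among signalling genes 14 were higher and 14 lower of 38 tested in endothelial cells, and 15 were higher and 19 lower of 46 tested in mural cells, with Rras higher in both (endothelial 109.9 against 0.971 CPM in neurons, log2 difference 6.72; mural 121 against 1.17 CPM in neurons, log2 difference 7.08). Other cues were higher in 5 and lower in 13 of 21 tested in endothelial cells, and higher in 6 and lower in 17 of 29 in mural cells. For endothelial over mural cells, signalling genes were higher in 9 and lower in 5 of 26 tested, and other cues higher in 1 and lower in 3 of 10.

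**Figure D3:**
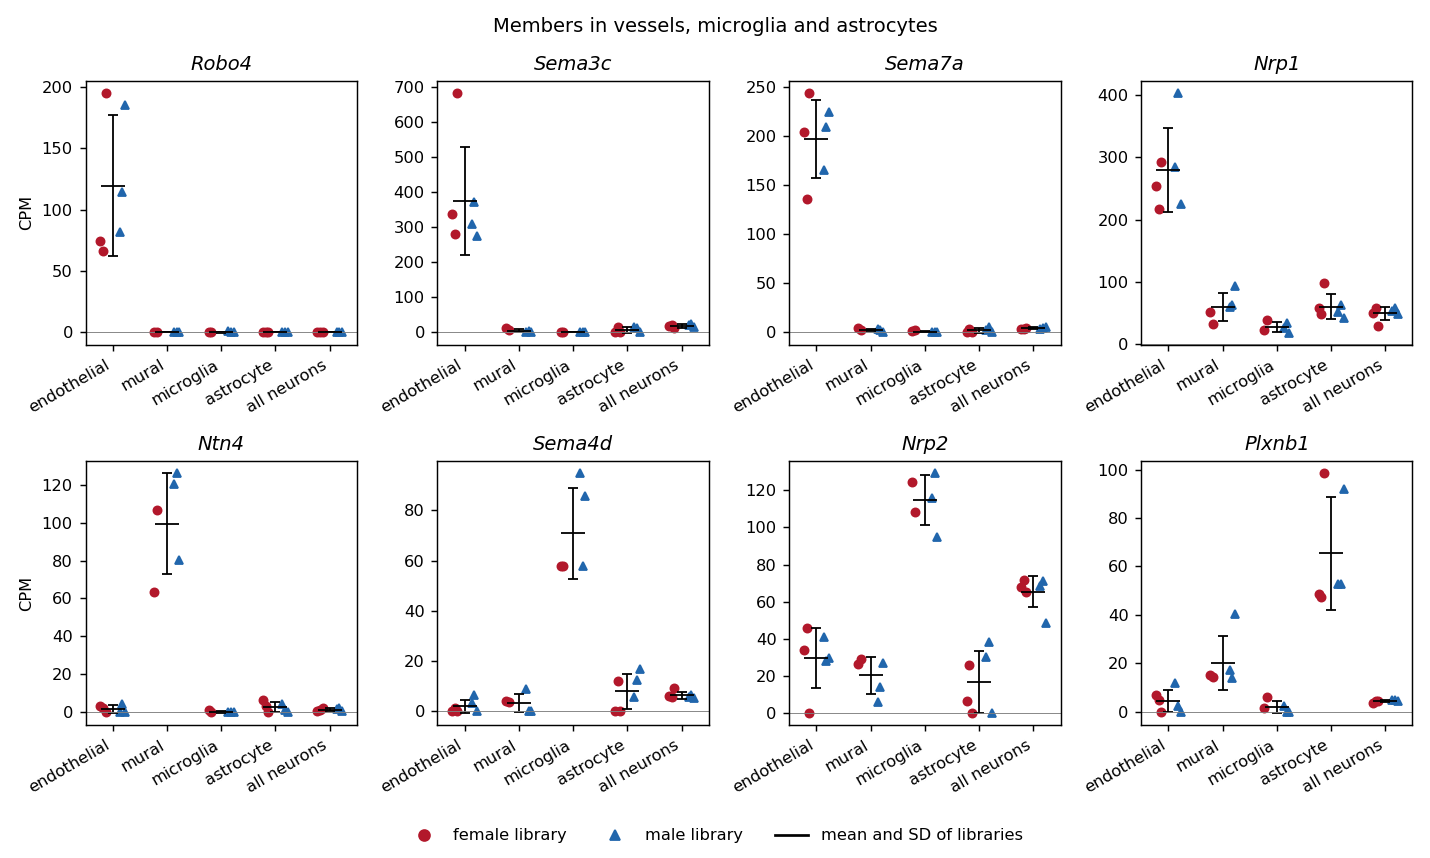
CPM of 8 guidance genes in each library (circles female, triangles male) with mean and SD of libraries (black) in endothelial cells, mural cells, microglia, astrocytes and all neurons, on linear axes. Robo4, Sema3c, Sema7a and Nrp1 are highest in endothelial cells, Ntn4 in mural cells and Plxnb1 in astrocytes, and of these 5 classes microglia are highest in Sema4d and Nrp2.

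Within neurons, striatal projection neurons were higher than the inhibitory class in Slit3, Efnb2 and Epha4 and lower in most semaphorins. The GABA neurons without a class name were not part of this comparison. The clusters of striatal projection neurons carried at least 8 of 15 striatal markers such as Drd1 and Adora2a. Of 55 members that passed the filter, 15 were higher and 32 lower, with 66.3% of all genes called (32.7% higher and 33.5% lower). No semaphorin was higher and 13 of the 18 tested were lower. Of 6 ephrins 4 were higher and 2 lower, and of 10 Eph receptors 4 were higher and 5 lower. Of 8 plexins 2 were higher and 5 lower, of 5 netrin receptors 1 and 4, and of 3 Slits 1 and 2. Both tested Robo receptors and the 1 tested netrin were higher, and 1 of 2 neuropilins was lower. The members' median log2 difference was -0.27 and that of all genes was close to 0.

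Slit3, a secreted Robo ligand, was at 37.7, 38.9 and 47.3 CPM in the female and 36.4, 43.1 and 29.5 CPM in the male libraries in striatal projection neurons. In the inhibitory class it was at 6.93, 6.83 and 9.67 CPM in the female and 6.47, 7.41 and 7.73 CPM in the male libraries. Every striatal library lay above every inhibitory one (log2 difference 2.53 ± 0.10 SE; edgeR, adjusted p = 2.65e-24). Efnb2, an ephrin that binds EphB receptors and EphA4, was at 46.0 to 118 CPM in striatal and 9.67 to 31.2 CPM in inhibitory neurons (log2 difference 1.52). Epha4 itself was at 94.5 to 141 CPM in striatal and 29.0 to 63.9 CPM in inhibitory neurons (log2 difference 1.34). Neither pair of ranges overlapped. Ntn1, Epha7, Robo1 and Plxna2 were higher as well without overlap, by log2 differences of 1.35, 1.19, 0.99 and 0.70, and the netrin receptor Dcc was higher (18.9 against 6.62 CPM in inhibitory neurons), a member singled out after its values were seen. Sema6a was at 10.22 to 15.4 CPM in striatal and 35.8 to 53.6 CPM in inhibitory neurons (log2 difference -1.86 ± 0.10 SE; edgeR, adjusted p = 6.34e-20). Sema5a, Plxna1, Unc5d, Sema4a and Efna5 were lower by log2 differences of -2.06, -2.04, -1.64, -1.55 and -1.33. Plxna1, Sema5a and Unc5d overlapped between the groups. Robo2, Efnb1 and Efna3 were higher with overlap, by 0.76, 0.53 and 0.47, and Sema3c, Sema6d, Slit2 and Nrp1 were lower by log2 differences of -1.30, -0.97, -0.85 and -0.51. Signalling genes were split, with 11 higher and 17 lower of 45 tested. Ngef, the exchange factor ephexin below EphA receptors (312 against 65.7 CPM in inhibitory neurons, log2 difference 2.39), and Chn1, a Rac-inactivating chimaerin below EphA4 (911 against 242 CPM in inhibitory neurons, log2 difference 1.93), were among the higher ones. Other cues were higher in 7 and lower in 17 of 28 tested, with Dscam, a netrin receptor, at 2.58 against 32.4 CPM in inhibitory neurons, log2 difference -3.37.

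Of the called differences between excitatory and inhibitory neurons, those of Ntn1 and Epha3 exceeded 1 log2 unit, Epha3 with 13.03 CPM in excitatory and 5.46 CPM in inhibitory neurons (log2 difference 1.26), a member singled out after its values were seen. Of 55 members that passed, 9 were higher and 15 lower in excitatory neurons, with 38.1% of all genes called (18.2% higher and 19.9% lower). Leaving out female replicate 2 took the higher count to 4, DESeq2 gave 5, and 4 members were lower at the finer clustering. Slit1, a secreted Robo ligand, was at 24.5 to 33.1 CPM in excitatory and 13.5 to 19.5 CPM in inhibitory neurons, without overlap (log2 difference 0.74 ± 0.07 SE; edgeR, adjusted p = 1.22e-08). Sema5a averaged 47.5 ± 13.2 CPM in excitatory and 33.1 ± 7.99 CPM in inhibitory neurons of the same 5 libraries (log2 difference 0.64), with overlap. Unc5d averaged 77.5 ± 19.6 CPM in excitatory and 118 ± 24.4 CPM in inhibitory neurons (log2 difference -0.56). Ntn1 had the largest fall of a member, to 1.89 ± 0.723 CPM in excitatory neurons, against 7.64 ± 1.68 CPM in inhibitory neurons (log2 difference -2.10 ± 0.20 SE; edgeR, adjusted p = 1.13e-08), and was singled out after its values were seen because both levels lay under 20 CPM. The remaining lower members had log2 differences of -0.39 (Sema6d), -0.36 (Epha5), -0.36 (Efnb2), -0.29 (Sema6a), -0.29 (Plxna2), -0.26 (Epha7), -0.24 (Efnb3) and -0.19 (Efna3), and Unc5c was higher by 0.35. The calls of Ephb6, Sema4f and Plxnc1, with log2 differences of 0.22, 0.19 and 0.18, were lost in DESeq2 and with single libraries left out. Sema3c had a log2 difference of -0.38, and of 0.16 at the finer clustering. Of signalling genes 7 were higher and 15 lower of 48 tested, and of other cues 6 were higher and 10 lower of 28, with Ntng1 and Chl1, both cell adhesion proteins, among the higher ones (116 against 72.8 CPM in inhibitory neurons, log2 difference 0.57; 218 against 147 CPM in inhibitory neurons, log2 difference 0.56).

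**Figure D4:**
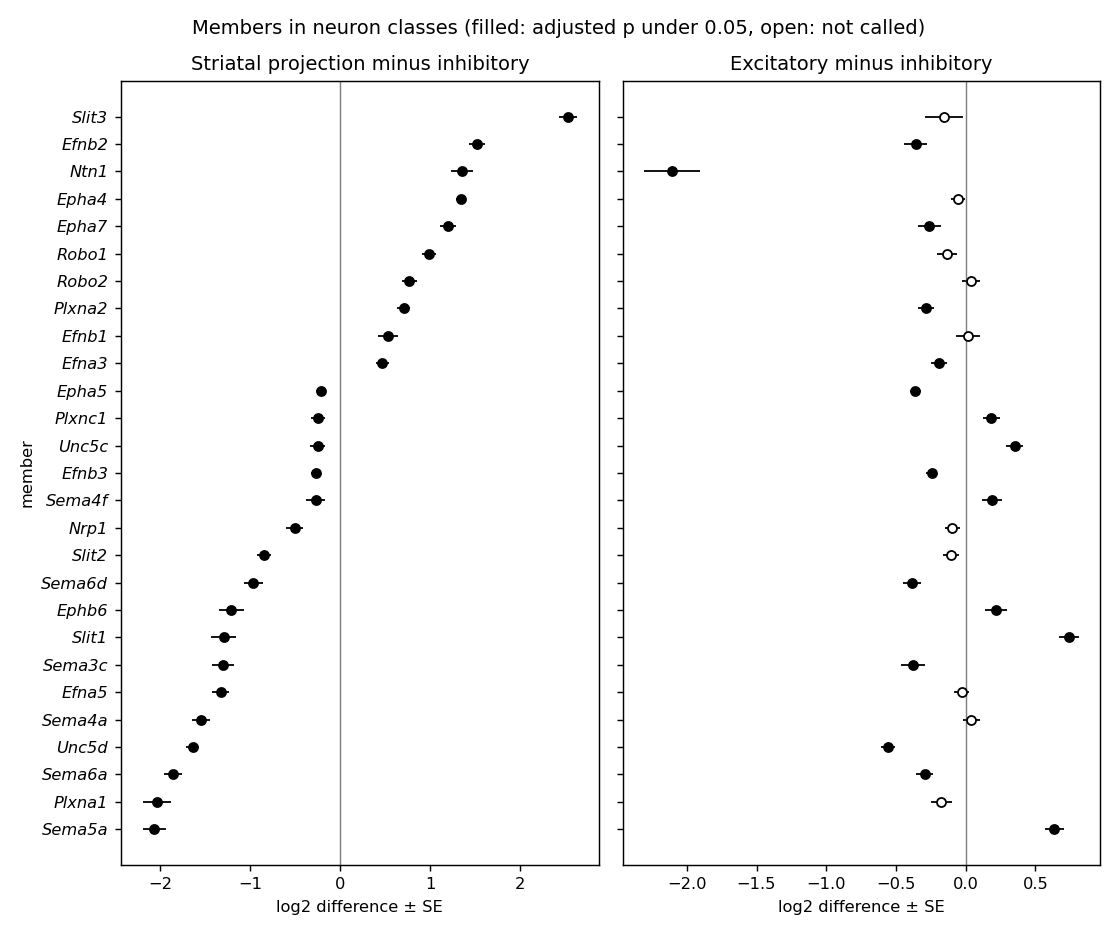
Log2 differences with their SE (horizontal axes) of the called guidance genes with a mean of at least 20 CPM in 1 of the classes compared, up to 10 per direction and comparison (rows), for striatal projection minus inhibitory neurons (left) and excitatory minus inhibitory neurons (right), filled where called. Epha3, under 20 CPM, is not plotted, whereas Ntn1 is shown in the right panel although both of its levels there lay under 20 CPM. The left panel spreads from -2.06 (Sema5a) to 2.53 (Slit3), and in the right panel Ntn1 lies at -2.10 and the rest between -0.56 (Unc5d) and 0.74 (Slit1).

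Single neuron clusters held much higher levels than these broad classes. Neurons were divided into 40 clusters, again without the guidance genes, and the 15 members with the highest ratio of the top cluster over the median cluster, at 50 CPM or more, are described without a test. A glutamatergic cluster led by Sln, Ctxn3 and Ebf2, with 164 cells and 3 usable libraries, was the top for 3 of them. It had 128.8 to 149.6 CPM of Epha3, where the next cluster had 11.7 to 38.7 CPM and the median of all clusters was 5.32 CPM. Its Sema3a, a secreted repellent, was at 112.0 to 166.9 CPM, against 31.5 to 62.9 CPM in the next cluster. Its Epha4 was at 358.5 to 386.5 CPM, against 198.6 to 226.0 CPM in the Drd1 cluster that came next. None of these top and next ranges overlapped.

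A GABAergic cluster led by 2610028E06Rik, Gbx1 and Satb1, with 444 cells and 4 usable libraries, was the top for 6 members. Its Sema3c averaged 201.2 ± 12.6 CPM, its Epha5 829.2 ± 74.8 CPM, its Epha7 97.8 ± 12.1 CPM, its Sema6d 140.8 ± 28.8 CPM, its Sema6a 124.8 ± 28.1 CPM and its Sema3e 53.8 ± 9.59 CPM (mean ± SD, n = 4). All but Sema3e were without overlap with the next cluster. For Sema3e the next was the GABAergic cluster led by Avp, Nms and Prokr2, a profile of 976 cells with 30.4 to 64.7 CPM. The Drd1 and Strip2 cluster was the top for Efnb2 (88.2 to 230.1 CPM) and Robo1 (43.8 to 170.9 CPM), the cluster led by Syt2, Pde11a and Lhx8 for Plxna2 (125.8 to 316.1 CPM), and the glutamatergic cluster led by Otp, Cbln1 and Ebf1 for Plxna1, Sema5a and Sema6b, with means of 77.1, 117.2 and 96.5 CPM. Of these, only Efnb2 was without overlap with its next cluster. Leaving out each library in turn gave another top cluster for 0 of the 15 members.

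**Figure D5:**
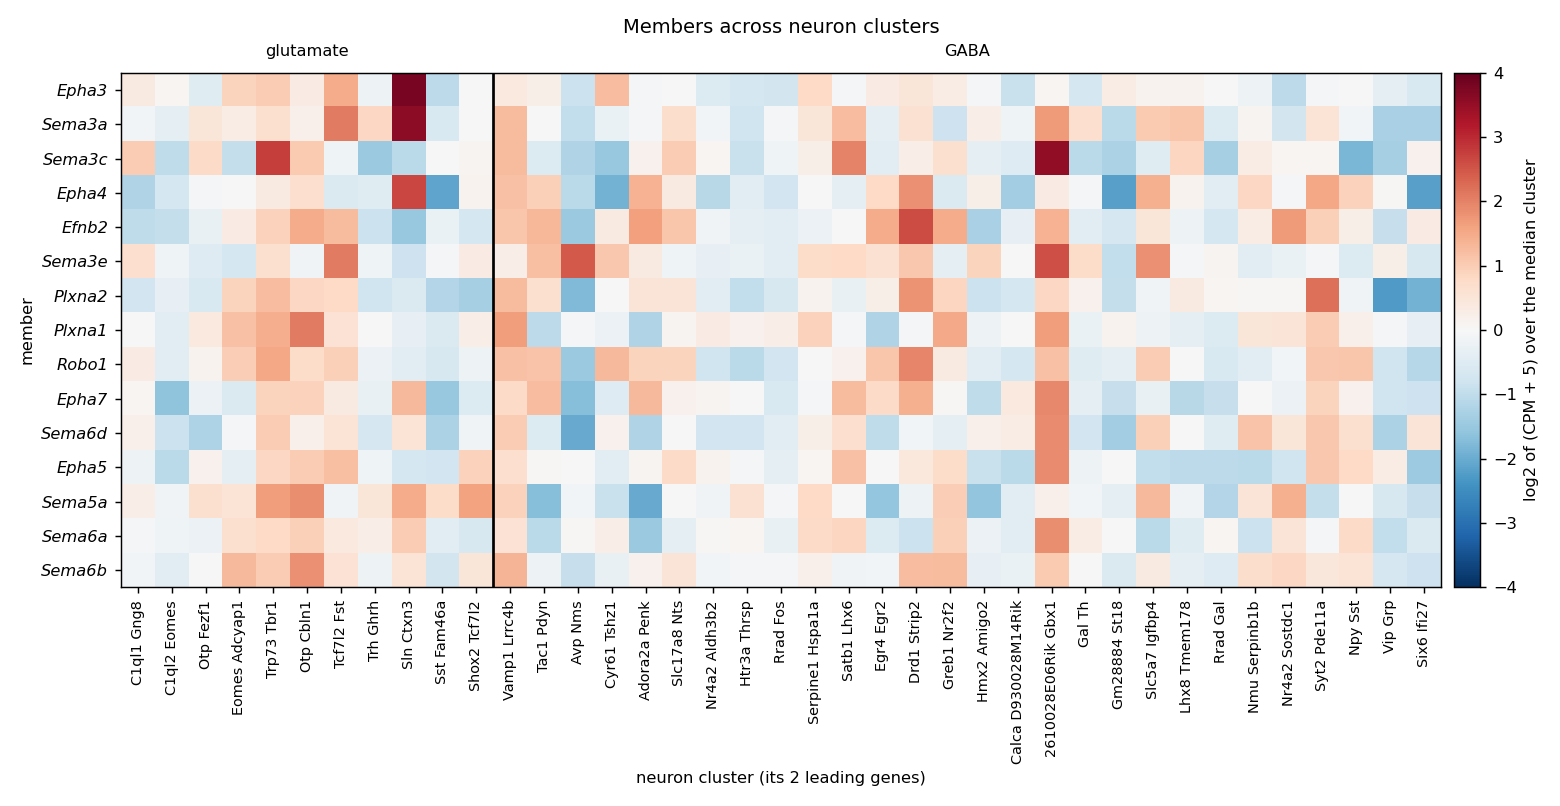
Levels of 15 guidance genes (rows) in the neuron clusters (columns, by transmitter, named by 2 leading genes), as log2 of (CPM + 5) over the gene's median cluster. Epha3 and Sema3a stand out in the cluster led by Sln, and Epha5, at 829.2 CPM, is highest in the cluster led by 2610028E06Rik.

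Ligands and receptors of one system could be compared by how alike their levels ran over the 11 classes. Ligands were paired with receptors of the same system whether or not they are known to bind each other. A high correlation therefore does not mark a matched ligand and receptor. The figures are Pearson correlations of the class means, given as a description, since the classes share libraries and neuronal RNA was measured in the other classes. In the ephrin system the most alike of 42 pairs were Efna3 with Epha7 (r = 0.97), Efnb2 with Epha7 (r = 0.92) and Efna5 with Epha7 (r = 0.86). Of these ligands, Efnb2 was described above as binding other Eph receptors than Epha7. In the Slit system Slit2 with Robo2 led 9 pairs (r = 0.91). Of 130 semaphorin pairs, Sema6b with Plxnc1 (r = 0.90) and Sema4f with Plxnc1 (r = 0.86) led. In the netrin system the most alike of 6 pairs was Ntn1 with Unc5c (r = 0.31). Both were highest in precursors, while Ntn4 was highest in mural cells, Unc5b in mature oligodendrocytes and Unc5d in inhibitory neurons.

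The sexes were compared over the 3 female and 3 male libraries, without a block. No member was called in all cells (67 tested, 0.0435% of all genes called), inhibitory neurons (58 tested, 0.0523%), excitatory neurons (53 tested, 0.0554%), mature oligodendrocytes (36 tested, 0.0543%), precursors (27 tested, 0.0528%) or astrocytes (15 tested, 0.0398%) by edgeR, and DESeq2 called none either. At an unadjusted p under 0.05 edgeR counted 1, 9, 3, 0, 0 and 0 members in that order, against 2.29%, 9.45%, 5.88%, 3.54%, 2.34% and 1.05% of all genes tested. The 9 members in inhibitory neurons were 15.5% of the 58 tested and the 3 in excitatory neurons 5.66% of the 53. In inhibitory neurons Sema6b averaged 25.6 ± 1.90 CPM in female and 36.4 ± 1.83 CPM in male libraries, without overlap (log2 difference -0.41 ± 0.13 SE; edgeR, adjusted p = 0.436). Sema5a there averaged 20.6 ± 9.55 CPM in female and 37.8 ± 6.47 CPM in male libraries, also without overlap (log2 difference -0.51 ± 0.17 SE; edgeR, adjusted p = 0.436). In excitatory neurons Sema3c averaged 16.8 ± 3.79 CPM in female and 25.5 ± 1.89 CPM in male libraries (SD, n = 2 and 3; log2 difference -0.52 ± 0.18 SE; edgeR, adjusted p = 0.794). The members of smallest p had log2 differences, female over male, of 0.89 (Robo3), -0.55 (Sema4d), 0.46 (Epha3), -0.41 (Epha8) and -0.30 (Ntn1) in all cells, -1.20 (Ntn4), -0.61 (Efna2) and -0.48 (Efnb2) besides those in inhibitory neurons, -0.90 (Ntn1), -0.78 (Sema5b), -0.47 (Epha10) and 0.42 (Sema3a) besides that in excitatory neurons, 0.76 (Unc5d), 0.72 (Efna3), 0.67 (Nrp2), 0.66 (Efnb1) and -0.36 (Unc5c) in mature oligodendrocytes, 0.67 (Sema4g), -0.41 (Dcc), -0.39 (Epha4), -0.35 (Robo1) and -0.32 (Sema6b) in precursors and -0.64 (Plxnc1), -0.64 (Nrp2), 0.47 (Robo1), -0.40 (Efnb3) and -0.35 (Sema6a) in astrocytes. Their edgeR adjusted p was 0.436 to 0.462 in inhibitory neurons, 0.794 to 0.808 in excitatory neurons and 1.000 in the other groups of cells. Unc5d in mature oligodendrocytes turned to -0.11 without female replicate 2, and Efnb3 in astrocytes turned sign without female replicate 1. None of the genes of the lists of signalling genes and other cues was called between the sexes in any of these groups of cells.

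The result changed when the replicate number was used as a block. In inhibitory neurons 14 of 58 members were then lower in female libraries and 0 higher, with 11.8% of all genes called. Deviations of same-numbered libraries from their group means correlated there at 0.160 to 0.197, and those of other pairs at -0.217 to 0.156. The margin is narrow and comes from these same libraries, so whether the numbers mark true pairs was not settled. The members called with the block were all in the same direction. They were Efnb2, Sema5a, Unc5d, Plxna1, Sema6b, Plxna2, Epha7, Epha10, Sema6a, Robo1, Plxna4, Unc5a, Sema3f and Ntn4. Of all genes 621 were higher and 962 lower in female libraries in that fit. The differences of the leading ones were small, -0.60 for Efnb2, -0.54 for Sema5a and -0.37 for Unc5d in log2 (edgeR with the block, adjusted p = 9.54e-04, 0.00118 and 0.00222). For Ntn4 the mean CPM went the other way, at 2.10 in female and 1.61 in male libraries. In excitatory neurons, with 2 pairs, 6 of 53 members were lower in female libraries with the block and 0 higher, with 10.7% of all genes called. Over the 4 largest libraries 2 of 53 were lower, Sema3c and Plxna2, where 388 of all 12630 genes were higher and 372 lower. In the other 4 groups of cells the block gave no call among the members, with 0.0373% of all genes called in all cells, 0.154% in mature oligodendrocytes, 0.211% in precursors and 0.0531% in astrocytes. Whether the sex difference itself differed between excitatory and inhibitory neurons was tested as an interaction, and 0 of 58 members were called, with 0.144% of all genes called and 4 members (6.90%) at an unadjusted p under 0.05, as were 5.75% of all genes. DESeq2 also called 0 there. The smallest p was that of Sema3a (0.65 ± 0.18 SE in log2; edgeR, adjusted p = 0.245).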

How the data were processed

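The deposited gene-by-cell tables held raw UMI counts, made with Cell Ranger 2.0.0 on the mm10 build per the submitters' processing notes. Which annotation and strand were used in counting is not given in the sources read. Cells with at least 500 genes and at most 20% mitochondrial UMIs were kept, and 1002 doublets (3.25%) were removed with Scrublet. The 29822 cells were clustered in scanpy 1.11.5 (2000 variable genes without the guidance genes and the pathway lists, 30 components, 15 neighbours, Leiden resolution 1.0, and 1.5 again within neurons). Clusters were named from marker lists, and 4 small ones stayed unnamed. UMIs were summed per library and class where at least 20 cells were present. Differences were tested with edgeR 4.0.16 in R 4.3.3 (quasi-likelihood, TMM, filter at a count of 10, Benjamini-Hochberg over all genes tested, called at an adjusted p under 0.05), with the library as a block between classes and without a block between sexes. The scripts were tested on simulated data.

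The alternatives were RLE scaling, no filter, DESeq2 1.42.0, each library left out, doublets kept, a higher minimum of genes per cell, Leiden resolution 2.0 and the block changed. Except with no filter, the filter on low counts was run anew in each fit, so the number of members tested could change. Scaling by total UMIs, the block over the 4 largest libraries and astrocytes without 1 finer cluster were added after seeing the data. Each library is a pool of 3 mice. In the sex fits without a block, p-values measure the spread between these libraries. With the library as a block, those between classes measure how much the class difference varied from library to library. CPM values cover counting error and library spread together, and low cell numbers limit the smallest library. The same replicate number gave correlated deviations from the group means in all cells (0.128 to 0.552), inhibitory neurons (0.160 to 0.197) and precursors (0.105 to 0.198), but down to 0.0256 in mature oligodendrocytes and 0.0238 in astrocytes. Libraries of different number gave -0.508 to 0.400 in all cells, -0.217 to 0.156 in inhibitory neurons and -0.196 to 0.157 in precursors, ranges that reach above the lowest same-numbered value in all cells and precursors. The pairing comes from the data, since the labels give the numbers without saying what they share.

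The members and gene lists were chosen with earlier results of these data known. Named members were, per class comparison, up to 10 called per direction with the largest log2 difference and a mean of at least 20 CPM in 1 class. Per sex comparison they were the 5 of smallest p, across neuron clusters the 15 with the highest ratio, and per pathway list up to 3 per direction. Of the 73 rows, 71 were found by identifier in GENCODE's GRCm38 annotation, and 14 had exons that overlap a gene on the other strand. RefSeq promoters (GRCm38.p6) were matched by symbol for 58 of the 71 symbols.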

Additional observations from a re-analysis of the deposited data

Results flagged for a closer look

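For 29 of 176 groups of libraries looked at, 1 library's log2 ratio between 2 classes (CPM plus 1 in each) stood apart from those of the others, by the gap to its nearest neighbour over the whole range. Chance alone sets apart about 1 in 20 groups. Most of the libraries named are female replicate 3 and male replicate 3, which held the fewest cells, and ratios below -4 rest on 0 CPM in the first class of that library. For excitatory over inhibitory neurons, male replicate 3 had -0.65 for Plxnc1 (others 0.12 to 0.38) and -0.61 for Efnb3 (others -0.26 to -0.16). For striatal projection over inhibitory neurons, male replicate 3 had 1.80 for Slit3 (others 2.18 to 2.39), and female replicate 3 had 4.20 for Epha7 (others 0.80 to 1.56), 2.23 for Robo1 (others 0.56 to 1.18), 1.82 for Plxna2 (others 0.51 to 0.86), 1.21 for Sema5a (others -2.41 to -1.41), 0.027 for Unc5d (others -1.86 to -1.40), -5.12 for Sema4a (others -1.70 to -1.41) and -5.31 for Sema6d (others -1.65 to -0.68). For newly formed oligodendrocytes over precursors, female replicate 1 had -4.88 for Ephb6 (others -1.96 to -1.11), and male replicate 3 had -4.98 for Robo1 (others -2.07 to -1.22), -4.61 for Plxnb1 (others -1.01 to -0.55) and -4.61 for Sema5b (others -1.17 to -0.35). For oligodendrocyte precursors over neurons, female replicate 3 had 5.18 for Plxnb3 (others 3.29 to 3.83), -0.56 for Ntn1 (others 2.58 to 3.13), 2.19 for Sema6d (others 0.55 to 0.96), -4.92 for Nrp1 (others -2.88 to -2.13), -5.72 for Plxnc1 (others -2.20 to -1.51) and -5.21 for Slit2 (others -1.74 to -1.14). For astrocytes over neurons, female replicate 3 had 0.13 for Sema4a (others 0.83 to 1.09) and -6.96 for Efnb3 (others -2.99 to -0.75). For endothelial cells over neurons, female replicate 3 had 5.81 for Sema3c (others 3.69 to 4.24) and -5.21 for Sema4a (others -2.06 to -1.05). For mural cells over neurons, male replicate 3 had 2.89 for Plxnb1 (others 1.41 to 1.77) and -5.93 for Epha4 (others -3.22 to -2.26). For endothelial over mural cells, male replicate 3 had 7.82 for Sema7a (others 5.43 to 5.98), 5.90 for Epha4 (others 1.99 to 3.05) and 6.63 for Efna1 (others 2.22 to 2.95).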

How the results depend on the processing

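Every called direction of a named member was kept under every alternative but for Sema3c in excitatory over inhibitory neurons (0.16 at Leiden resolution 2.0) and Unc5c in mature oligodendrocytes over neurons (-0.067 by total UMIs). Among members not called between the sexes, 2 turned with a library left out. The first, female over male in mature oligodendrocytes: Unc5d, gave -0.11 (without female replicate 2) to 1.18. The other, female over male in astrocytes: Efnb3, gave -2.18 to 0.000773 (without female replicate 1). The cause was not tested. Counts of members moved by over 1.5 times as follows. Higher in excitatory neurons, 9 became 5 in DESeq2, 4 without the library as block and 4 to 8 with a library left out, and 15 lower became 4 at Leiden resolution 2.0 and 4 without the library as block. With no filter on low counts more members were tested, and lower members came to 16 in newly formed and 21 in mature oligodendrocytes, 34 in astrocytes, 32 in endothelial cells and 5 in endothelial over mural cells, and higher ones to 10 in microglia and 15 in endothelial cells. At Leiden resolution 2.0, 14 were higher in newly formed cells. Leaving out a library gave 11 to 19 lower in mature over newly formed oligodendrocytes, 12 to 26 lower in astrocytes, 6 to 10 higher in microglia, 13 to 26 lower in endothelial cells and 3 to 6 higher in mural cells, where RLE, DESeq2 and total UMIs each gave 3. With the replicate block, lower members between the sexes came to 14 in inhibitory neurons (14 over the 4 largest libraries) and 6 in excitatory neurons (2 over the 4 largest), and the block changed no other sex call. In inhibitory neurons over the 4 largest libraries, 1215 of all 13729 genes tested were higher and 1130 lower. Without the astrocytes of the cluster holding Gad2, 31 members were highest outside neurons (30 with them), and 5 were higher and 17 lower in astrocytes (6 and 20). In all cells, precursors, mature oligodendrocytes and astrocytes, some libraries of different number correlated above the lowest same-numbered pair. In inhibitory neurons the highest value of different numbers was 0.156 and the lowest of the same number 0.160. Scaling by total UMIs changed the split of all called genes, higher and lower, to 1470 and 2934 (TMM 2093 and 2156) in newly formed cells over precursors, 1377 and 4443 (2465 and 2529) in mature over newly formed cells, 2803 and 8795 (5152 and 5725) in mature oligodendrocytes over neurons, 1805 and 3811 (2478 and 2401) in astrocytes, 2247 and 8227 (4063 and 4799) in microglia, 1856 and 3825 (2369 and 2563) in endothelial cells, and 2162 and 5563 (3007 and 3692) in mural cells. RLE gave 2043 and 3264 in astrocytes, 3122 and 6415 in microglia and 1888 and 3749 in endothelial cells. For the sexes it was 1 and 5 (2 and 5) in inhibitory neurons and 14 and 10 (8 and 12) for the interaction by total UMIs. Depth limits classes of few cells, above all in female replicate 3.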
